A study of Mus musculus with 16 samples.

Results

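The integrated stress response was followed through 9 of its transcripts, Atf4, Ddit3, Atf5, Atf3, Trib3, Ppp1r15a, Asns, Psat1 and Phgdh, in T cells with and without GABPα, the DNA-binding subunit of the Ets family transcription factor GABP. The genes were listed by name, and every probe set that the platform's gene table assigns to one of these symbols alone was taken. They made up 9 of the 12394 genes tested and 17 of the 20393 probe sets that named 1 gene. The WT mice were Gabpaf/f and the KO mice CD4CreGabpaf/f, so all animals carried the floxed Gabpa alleles. The KO groups differed from WT by a Cre transgene under Cd4 control, which per the study's text is active in double-positive thymocytes. All mice were on a C57BL/6 background, of both sexes, with littermate controls where possible, and ages and the number of mice behind each array were not given for these samples. Naive CD4+ and CD8+ T cells (CD25-, CD62Lhi, CD44lo) sorted from spleen and lymph nodes were lysed at once (0 h) or stimulated through the T cell receptor with plate-bound antibodies against CD3, together with anti-CD28 and IL-2, and lysed 18 h later. Per the study's methods, sorted cells were split between 0 h and 18 h. The main fit did not pair these samples, and fits with the replicate number as a block are given as alternatives. The 8 groups of lineage, genotype and time held 2 arrays each, 16 in all, and the values are log2 probe-set signals. Differences are given on the log2 scale with their standard error (SE) from limma, and a gene was called where the adjusted p was under 0.05 and the fold over 1.5. With 2 replicates per group, whose mice the labels do not identify, the p-values measure the spread between these samples.

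In the integrated stress response, kinases that sense amino acid shortage, misfolded protein, mitochondrial damage, haem shortage or double-stranded RNA phosphorylate the translation factor eIF2. Most protein synthesis then slows, while the mRNA of the transcription factor Atf4 is translated more. Atf4 and its partners raise the transcription of amino acid enzymes and transporters, of tRNA synthetases and of the regulators Ddit3 (CHOP), Atf3, Atf5 and Trib3, and Ppp1r15a (GADD34) brings a phosphatase back to eIF2. T cells that leave quiescence raise serine and asparagine synthesis and amino acid uptake as part of normal growth, so several of these genes also belong to T cell activation. Arrays measure transcripts only, and neither eIF2 phosphorylation nor Atf4 protein was measured here.

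Promoter sequences were searched for elements through which these factors act, because the 9 genes are regulators and targets of each other. RefSeq windows (GRCm38.p6) from 250 bases before to 50 bases after the start site were found for 9 of 9 genes, 11 windows in all. The core of the C/EBP-ATF response element (CARE, letters TGATGNAA, either strand), the site that Atf4 dimers bind, lay in 3 of the 9 genes and in 3.97% of all 32851 windows. A cAMP response element (TGACGTCA, a palindrome) lay in 1 gene and in 1.79% of windows, and the Ets site preferred by GABP (CCGGAAG, either strand) in 2 genes and 8.86% of windows. The longer element ATTGCATCA, which overlaps the CARE core, and the ER stress element (ERSE) were in 0 of the 9 genes, against 0.192% and 0.119% of windows. The stretches below are the 4 in which a match lies before the start site, 100 bases each in the direction of the gene with the match in capitals. For Ddit3 (chr10:127290547-127290646, plus strand) the capitals mark the Ets site, 199 to 193 bases before the start. For Atf3 (chr1:191183390-191183489, minus strand) and Asns (chr6:7693210-7693309, minus strand) they mark the CARE core, 110 to 103 and 23 to 16 bases before the start. For Ppp1r15a (chr7:45526269-45526368, minus strand) they mark the cAMP response element, 12 to 5 bases before it.
Ddit3: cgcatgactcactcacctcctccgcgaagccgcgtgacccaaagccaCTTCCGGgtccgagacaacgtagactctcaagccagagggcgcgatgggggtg
Atf3: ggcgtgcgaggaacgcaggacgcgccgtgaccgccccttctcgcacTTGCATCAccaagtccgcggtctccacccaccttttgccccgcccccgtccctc
Asns: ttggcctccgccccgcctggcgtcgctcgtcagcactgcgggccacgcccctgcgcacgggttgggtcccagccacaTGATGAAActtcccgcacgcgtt
Ppp1r15a: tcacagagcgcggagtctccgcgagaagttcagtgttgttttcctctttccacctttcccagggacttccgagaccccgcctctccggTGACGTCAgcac
The Trib3 window holds a CARE core 15 to 22 bases after the start and a second Psat1 window an Ets site 13 to 19 bases after it. Atf4, Atf5 and Phgdh had none of these letters in their windows. A match is a description of the sequence and not a binding site shown in these cells. Sequence outside these windows was not searched, so a count of 0 says nothing about elements farther from the start.

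The arrays were checked against their labels. Cd3d lay between 11.52 and 12.86 on all arrays, Cd8a between 10.89 and 12.01 on CD8 arrays against 4.42 to 7.56 on CD4 arrays, and Cd4 between 6.34 and 7.26 on CD4 arrays against 4.78 to 5.59 on CD8 arrays. The Gabpa probe set gave 8.74 to 9.34 in WT and 9.09 to 9.79 in KO. Between the genotypes it was called only in CD4 cells at 18 h, higher in KO by 0.72 ± 0.20 (limma adjusted p = 0.0441). Where its probes lie relative to the deleted part is not given in the sources used here, so it checks nothing. In the study's own immunoblot, GABPα protein was barely detectable in KO CD4+ and CD8+ T cells. Gabpb1, the gene of the partner subunit of GABPα, was higher in KO by 1.37 (0 h) and 1.46 (18 h) in CD4 and by 1.63 (0 h) and 1.43 (18 h) in CD8 cells, each ± 0.22. The array of CD8 KO 18 h replicate 2 stood apart in RNA quality, with a 3′ minus 5′ control difference (mean of actin and Gapdh) of 3.76. The next highest were 1.58 (CD4 WT 0 h replicate 1) and 1.11 (CD8 KO 0 h replicate 2), and the other 13 arrays lay between 0.46 and 0.85. These 3 are called below the arrays of low RNA quality. They were taken as the 3 largest values and not by a quality cutoff, and only the first stood far from the rest. Leaving them out also takes an array from each of CD4 WT 0 h, CD8 KO 0 h and CD8 KO 18 h. Calls of the 9 genes that changed without them are given with and without them.

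After 18 h of stimulation, Ddit3, Trib3, Atf5 and Atf4 were higher in KO than in WT CD4 T cells, by 2.70, 2.79, 1.52 and 1.03 (log2). In CD8 T cells Ddit3 was higher by 1.92 and Psat1, an enzyme of serine synthesis, lower by 1.35. Of the 9 genes, 4 were called higher and 0 lower in CD4 cells, where 6.86% of all genes were called (2.72% higher, 4.14% lower), and 1 was called higher and 1 lower in CD8 cells, where 2.75% of all genes were called (1.59% higher, 1.16% lower). The median difference of the 9 genes was 1.03 in CD4 and 0.65 in CD8 cells, beside 0.02 and 0.07 over all genes. The study's text names Ddit3 from these same samples, so its direction here is not independent evidence. The same holds for Oma1, Pdia5 and Shmt1, which are among the list genes given further below. The 9 genes and the lists were also chosen with earlier results of these data known. Their counts and medians beside those of all genes are therefore not independent evidence either. In bulk samples like these, fewer cells with a transcript and less transcript per cell cannot be told apart.

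**Figure D1:**
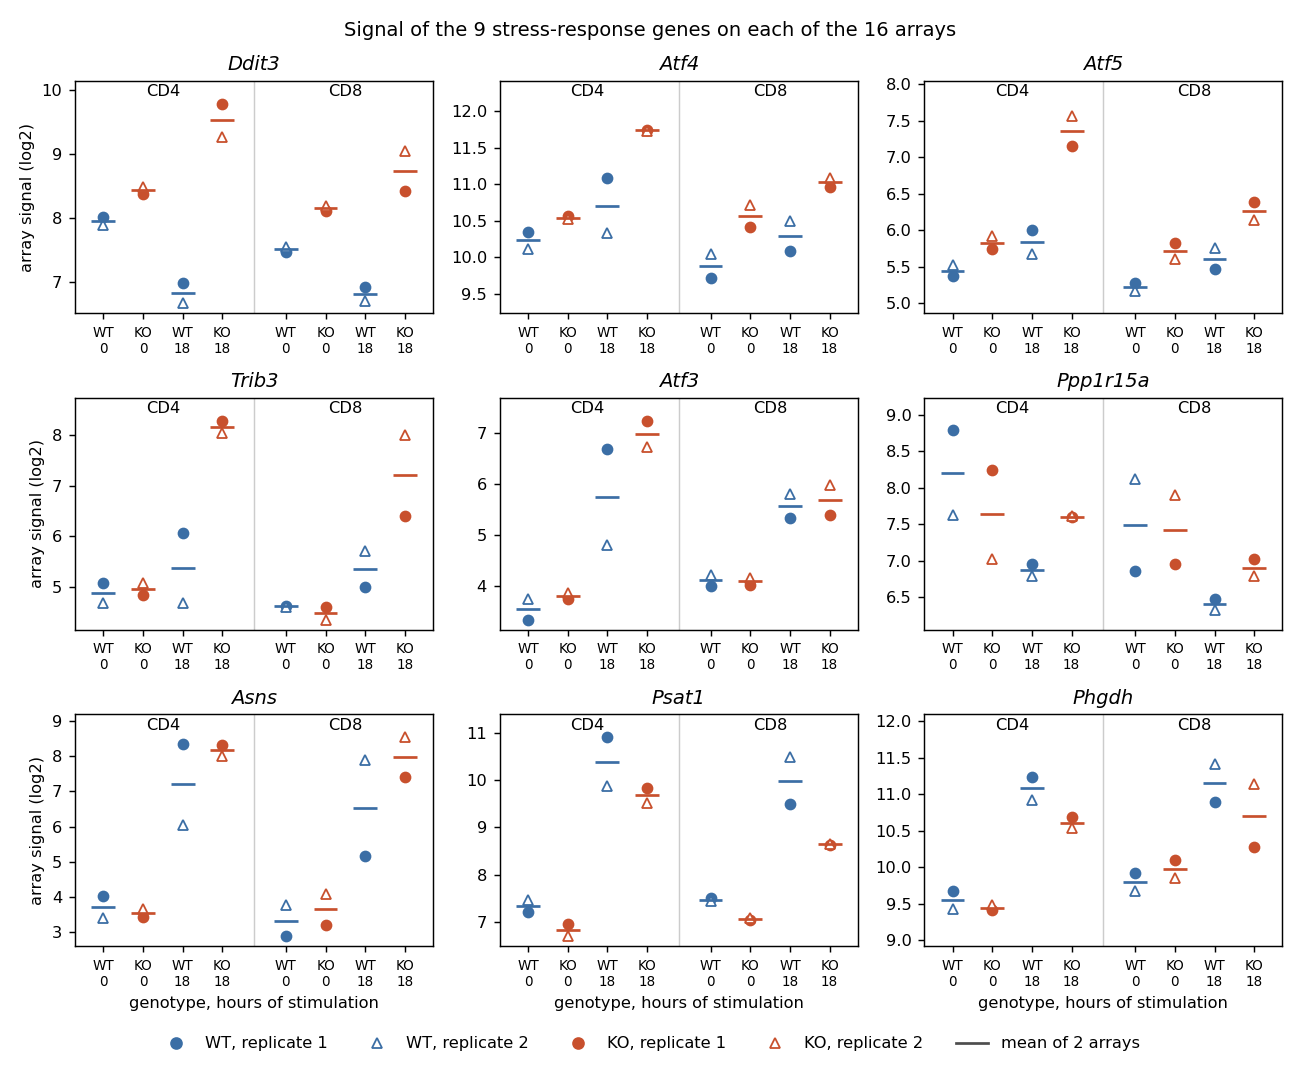
Log2 array signal (y axis, a separate scale in each panel) of the 9 genes on the 16 arrays, by genotype and hours of stimulation (x axis), with CD4 groups on the left and CD8 groups on the right of each panel. Filled circles are replicate 1, open triangles replicate 2 and lines the mean of 2 arrays. Ddit3 falls from 0 h to 18 h in WT and lies highest in KO at 18 h, while Asns spreads from 6.04 to 8.35 between the 2 arrays of stimulated CD4 WT cells.

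Ddit3, a C/EBP family factor that lowers survival under lasting stress, read 6.98 and 6.67 in CD4 WT and 9.78 and 9.27 in CD4 KO cells at 18 h, and 6.92 and 6.70 in CD8 WT and 8.42 and 9.05 in CD8 KO cells. The lowest KO array was above the highest WT array by more than the gap between replicates in each lineage. The difference was 2.70 ± 0.22 (SE, limma adjusted p = 1.72e-05) in CD4 cells and 1.92 ± 0.22 (adjusted p = 0.000737) in CD8 cells, and it was called in 16 of 16 fits that left out 1 array. Without the 3 arrays of low RNA quality the CD8 difference was 1.61 (adjusted p = 0.00859).

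Trib3, a pseudokinase that Ddit3 and Atf4 induce, read 6.07 and 4.67 in CD4 WT, 8.28 and 8.03 in CD4 KO, 5.0 and 5.70 in CD8 WT and 6.40 and 8.0 in CD8 KO cells at 18 h. KO arrays were above WT arrays in each lineage, but the 2 CD8 KO arrays differed widely, and the higher one was the array of low RNA quality. The difference was 2.79 ± 0.48 (limma adjusted p = 0.00376, called in 16 of 16 fits without 1 array) in CD4 cells. In CD8 cells it was 1.85 ± 0.48 (adjusted p = 0.064), 1.05 without CD8 KO replicate 2 (adjusted p = 0.348). It passed the threshold with the replicate number as a block (adjusted p = 0.0249), without CD8 KO replicate 1 (2.65, adjusted p = 0.00367) and without either CD4 WT 18 h array (adjusted p = 0.0426). The other Trib3 probe set gave 1.86 ± 0.38 (adjusted p = 0.0163 over probe sets) in CD4 and 0.92 ± 0.38 in CD8 cells.

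Atf4, the central factor of the response, is controlled mainly at translation, and its transcript read 11.08 and 10.33 in CD4 WT, 11.75 and 11.73 in CD4 KO, 10.09 and 10.50 in CD8 WT and 10.96 and 11.09 in CD8 KO cells at 18 h. The genotypes did not overlap in either lineage. The difference was 1.03 ± 0.23 (limma adjusted p = 0.018) in CD4 cells and 0.73 ± 0.23 (adjusted p = 0.122, and 0.0342 with the replicate block) in CD8 cells. The CD4 call was lost without WT replicate 2 (0.66, adjusted p = 0.172), KO replicate 1 (1.02, adjusted p = 0.0994) or KO replicate 2 (1.04, adjusted p = 0.111). Of the 2 further Atf4 probe sets, one gave 1.08 ± 0.31 in CD4 and 1.10 ± 0.31 in CD8 cells and the other 0.37 ± 0.21 and 0.17 ± 0.21, all without a call.

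Atf5, a factor linked to the mitochondrial unfolded protein response, read 6.0 and 5.68 in CD4 WT against 7.15 and 7.57 in CD4 KO cells at 18 h. It read 5.47 and 5.75 in CD8 WT against 6.38 and 6.14 in CD8 KO cells, and the genotypes were apart in each lineage. The difference was 1.52 ± 0.19 (limma adjusted p = 0.000404, called in 16 of 16 fits without 1 array) in CD4 and 0.65 ± 0.19 (adjusted p = 0.0955) in CD8 cells. Atf3, a factor induced by Atf4 and by many other stimuli, read 6.68 and 4.81 in CD4 WT and 7.24 and 6.72 in CD4 KO cells, a difference of 1.23 ± 0.45 (adjusted p = 0.143) that was called in 1 of 16 fits, the one without CD4 WT 18 h replicate 1 (2.17, adjusted p = 0.00335). In CD8 cells Atf3 read 5.34 and 5.81 in WT and 5.40 and 5.99 in KO, which overlap, with a difference of 0.12 ± 0.45. Ppp1r15a, the regulatory subunit of the eIF2 phosphatase, read 6.96 and 6.79 in CD4 WT and 7.60 and 7.61 in CD4 KO cells (0.73 ± 0.48, adjusted p = 0.542), and 6.48 and 6.32 in CD8 WT and 7.02 and 6.79 in CD8 KO cells (0.51 ± 0.48, adjusted p = 0.687).

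None of the 3 amino acid enzymes was called higher in KO cells at 18 h. Psat1, which makes phosphoserine, read 10.90 and 9.88 in CD4 WT and 9.84 and 9.52 in CD4 KO cells at 18 h, and 9.50 and 10.48 in CD8 WT and 8.63 and 8.65 in CD8 KO cells. KO lay below WT in each lineage, with a difference of -0.71 ± 0.32 (limma adjusted p = 0.279) in CD4 and -1.35 ± 0.32 (adjusted p = 0.0462) in CD8 cells. The CD8 call was near the threshold and was kept in 4 of 16 fits, those without either CD4 WT 18 h array, without the first CD8 WT array (-1.85) or without the first CD8 KO array of that time. In the 12 others it lay between -1.37 and -0.86 with adjusted p of 0.0593 to 0.394, the last without CD8 WT 18 h replicate 2. Without the 3 arrays of low RNA quality it was -1.37 (adjusted p = 0.177), and the other Psat1 probe set gave -0.90 ± 0.37 in CD8 cells. Phgdh, the step before Psat1 in serine synthesis, was lower in KO by -0.47 ± 0.26 (adjusted p = 0.419) in CD4 and -0.45 ± 0.26 (adjusted p = 0.437) in CD8 cells. Asns, the asparagine synthetase whose promoter holds the CARE core printed above, read 8.35 and 6.04 in CD4 WT and 8.32 and 8.0 in CD4 KO cells, and 5.17 and 7.89 in CD8 WT and 7.40 and 8.53 in CD8 KO cells. The WT arrays were so far apart that the genotypes overlapped, and the differences were 0.96 ± 0.82 (95% interval -0.81 to 2.74) and 1.44 ± 0.82 (95% interval -0.34 to 3.21).

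**Figure D2:**
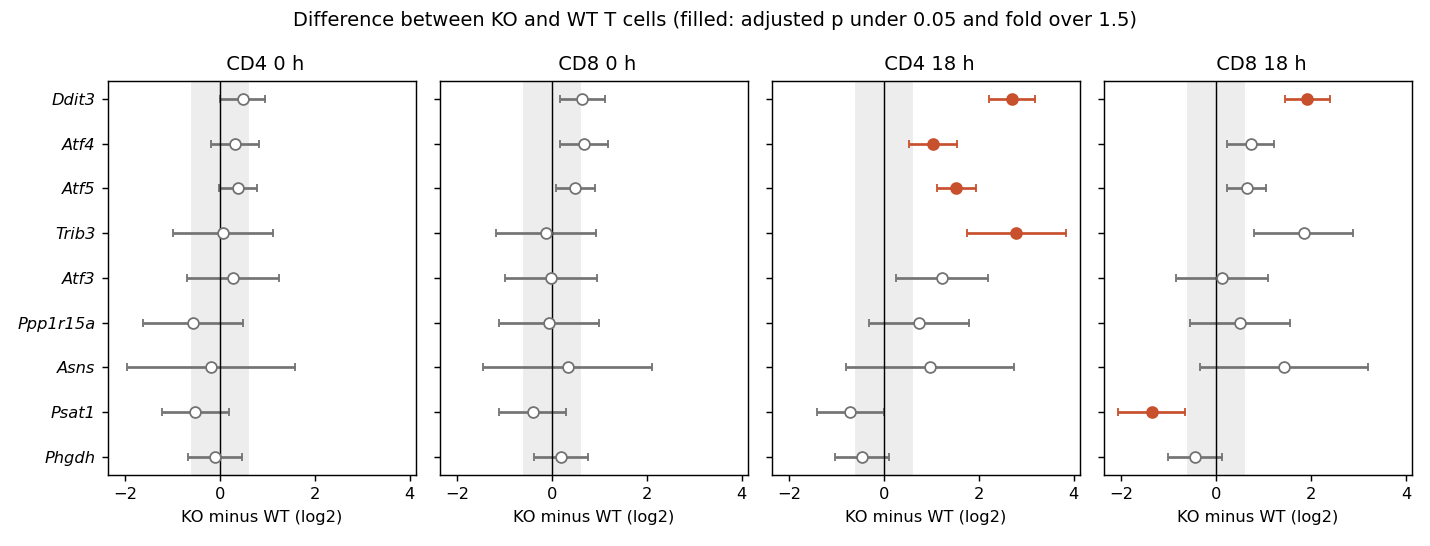
KO minus WT difference (log2, x axis) of each gene in CD4 and CD8 T cells at 0 h and 18 h. Points are limma estimates, bars their 95% intervals, the grey band folds under 1.5, and filled points genes called. At 0 h no gene was called, and at 18 h Ddit3 reached 2.70 in CD4 and 1.92 in CD8 cells while Psat1 reached -1.35 in CD8 cells.

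Cell type markers and activation state were set beside these differences. In CD4 cells at 18 h, the summed level of the 7 measured B cell markers was 10.52 to 10.71 (log2) in WT and 9.04 to 9.51 in KO, of which Ighm was 10.44 to 10.64 and 8.84 to 9.33. The other 6 lay between 2.88 and 4.95 on these arrays, where Cd79b was 3.78 to 3.95 in WT and 3.45 to 3.52 in KO, and Ms4a1, Cd79a, Pax5, Cr2 and Blnk overlapped between the genotypes. The summed level of 10 myeloid and dendritic cell markers was 8.72 to 8.97 in WT and 7.80 to 8.13 in KO CD4 cells at 18 h. In CD8 cells at 18 h the B cell list read 10.44 to 10.79 in WT and 10.68 to 10.96 in KO, and the myeloid list 8.74 to 9.0 and 7.57 to 8.46. The 6 measured activation markers summed to 13.07 to 13.24 in CD4 WT, 13.23 to 13.31 in CD4 KO, 12.13 to 12.64 in CD8 WT and 12.19 to 12.37 in CD8 KO cells. The 7 measured memory and effector markers summed to 11.92 to 11.99 in CD8 WT and 10.86 to 11.16 in CD8 KO cells at 18 h, of which Gzmb (granzyme B) was 11.75 to 11.81 and 9.95 to 10.53. The part of these lists in the differences was not tested.

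Straight after sorting, 0 of the 9 genes were called between KO and WT by limma in CD4 cells, where 1.27% of all genes were called (0.533% higher, 0.742% lower), and 0 in CD8 cells, where 1.63% were (1.13% higher, 0.500% lower). At an unadjusted p under 0.05 there was 1 in CD4 cells (Ddit3) and 3 in CD8 cells (Ddit3, Atf4 and Atf5), all higher in KO, and limma's test against a fold of 1.5 also called 0. Ddit3 read 8.02 and 7.89 in CD4 WT and 8.38 and 8.49 in CD4 KO, and 7.47 and 7.55 in CD8 WT and 8.11 and 8.19 in CD8 KO cells. The genotypes did not overlap, with differences of 0.48 ± 0.22 (adjusted p = 0.472) and 0.64 ± 0.22 (adjusted p = 0.237). Atf4 read 9.72 and 10.05 in CD8 WT and 10.41 and 10.71 in CD8 KO cells, apart by 0.68 ± 0.23 (adjusted p = 0.249). Atf5 read 5.28 and 5.16 in CD8 WT and 5.82 and 5.60 in CD8 KO cells, apart by 0.49 ± 0.19 (adjusted p = 0.338). Trib3 differed by 0.07 ± 0.48 in CD4 and -0.13 ± 0.48 in CD8 cells, and its intervals, -0.98 to 1.11 and -1.18 to 0.92, leave room for a fold over 1.5 in each direction.

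Stimulation itself moved most of these genes. In WT cells Asns, Psat1, Atf3 and Phgdh rose and Ddit3 fell in each lineage, while in KO CD4 cells 8 of the 9 genes rose. The CD8 WT calls of Atf3 and Ddit3 were near the threshold, and each was kept in 4 of 16 fits that left out 1 array. Of the 9 genes, 4 rose and 1 fell in CD4 WT (26.2% of all genes called, 12.2% higher and 14.0% lower), 8 rose in CD4 KO (24.2% called, 11.1% higher and 13.2% lower), 4 rose and 1 fell in CD8 WT (15.2% called, 8.21% higher and 7.0% lower) and 4 rose in CD8 KO cells (7.54% called, 3.67% higher and 3.86% lower). The medians of the 9 genes were 0.48, 1.54, 0.74 and 0.73 in that order, beside -0.07, 0.03, -0.06 and 0.02 over all genes. The 18 h arrays are also those of the genotype comparison, so the differences share samples.

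Asns went from 4.04 and 3.41 at 0 h to 8.35 and 6.04 at 18 h in CD4 WT and from 3.44 and 3.65 to 8.32 and 8.0 in CD4 KO cells. In every group both 18 h arrays lay above both 0 h arrays. The 0 h readings were low, down to percentile 13.6 of an array, or 4.3 on the other Asns probe set. They are not shown to be above background, so the size of the rise may be understated. The rise was 3.47 ± 0.82 (limma adjusted p = 0.00594) in CD4 WT, 4.62 ± 0.82 (adjusted p = 0.000983) in CD4 KO, 3.21 ± 0.82 (adjusted p = 0.0172) in CD8 WT and 4.32 ± 0.82 (adjusted p = 0.00624) in CD8 KO cells. In CD4 WT it was 2.31 without 18 h replicate 1 (adjusted p = 0.0866). In CD8 WT it was 1.84 without 18 h replicate 2 (adjusted p = 0.239) and 2.76 without 0 h replicate 1 (adjusted p = 0.139), and in CD8 KO 3.88 without 0 h replicate 1 (adjusted p = 0.0714) and 3.75 without 18 h replicate 2 (adjusted p = 0.0508).

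Psat1 went from 7.22 and 7.47 to 10.90 and 9.88 in CD4 WT, from 6.96 and 6.70 to 9.84 and 9.52 in CD4 KO, from 7.51 and 7.44 to 9.50 and 10.48 in CD8 WT and from 7.05 and 7.08 to 8.63 and 8.65 in CD8 KO cells. The rises were 3.04, 2.85, 2.51 and 1.57, each ± 0.32, with limma adjusted p of 2.29e-05, 3.47e-05, 0.000298 and 0.0105, and the last was lost without CD8 KO 0 h replicate 1 (adjusted p = 0.0747) or 0 h replicate 2 (adjusted p = 0.0571). Phgdh rose by 1.53 ± 0.26 in CD4 WT (adjusted p = 0.000691), 1.16 ± 0.26 in CD4 KO (adjusted p = 0.00498) and 1.37 ± 0.26 in CD8 WT cells (adjusted p = 0.00347), and changed by 0.73 ± 0.26 in CD8 KO cells (adjusted p = 0.118, and 1.17 with adjusted p = 0.00672 without CD8 KO 18 h replicate 1). Its CD8 WT call was lost without 18 h replicate 2 (1.11, adjusted p = 0.0616). Both serine synthesis genes rose in WT cells of each lineage.

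Ddit3 was the only one of the 9 genes whose calls had opposite directions in the genotypes of CD4 cells. It fell by 1.13 on the log2 scale in CD4 WT cells (SE 0.22, limma adjusted p = 0.00161) and rose by 1.09 ± 0.22 (adjusted p = 0.00232) in CD4 KO cells, both called in 16 of 16 fits without 1 array. In CD8 cells it fell by 0.70 in WT (SE 0.22, adjusted p = 0.0455) and changed by 0.58 ± 0.22 in KO (adjusted p = 0.136). The CD8 WT call was kept in 4 of 16 fits, those without 1 of the CD4 KO or CD8 KO 18 h arrays, and in the others the difference lay between -0.81 and -0.59 with adjusted p of 0.0524 to 0.301. Without CD8 KO 18 h replicate 1 the CD8 KO rise was 0.90 (adjusted p = 0.0159).

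On the probe sets used for the gene table, Trib3 rose on stimulation in KO cells of each lineage and Atf5 and Atf4 in CD4 KO cells. None of these was called in WT cells. Trib3 changed by 0.48 ± 0.48 in CD4 WT (limma adjusted p = 0.543) and rose by 3.21 ± 0.48 in CD4 KO cells (adjusted p = 0.000291), and in CD8 cells changed by 0.74 ± 0.48 in WT (adjusted p = 0.385) and rose by 2.72 ± 0.48 in KO (adjusted p = 0.00427). Atf5 rose by 1.54 ± 0.19 (adjusted p = 6.28e-05) and Atf4 by 1.19 ± 0.23 (adjusted p = 0.00197) in CD4 KO cells, against changes of 0.39 ± 0.19 and 0.47 ± 0.23 in CD4 WT cells, where Atf4 was called only without 18 h replicate 2 (0.85, adjusted p = 0.0185). In CD8 KO cells Atf5 changed by 0.55 ± 0.19 (adjusted p = 0.102) and Atf4 by 0.46 ± 0.23 (adjusted p = 0.296). Of the further Atf4 probe sets one was called there (1.28 ± 0.31, adjusted p = 0.0321 over probe sets) and the other was not (0.22 ± 0.21). The other Trib3 probe set changed by 1.27 ± 0.38 in CD8 KO cells (adjusted p = 0.0773 over probe sets). Atf3 rose by 2.21 ± 0.45 in CD4 WT (adjusted p = 0.00222), 3.18 ± 0.45 in CD4 KO (adjusted p = 0.000177), 1.46 ± 0.45 in CD8 WT (adjusted p = 0.0424) and 1.60 ± 0.45 in CD8 KO cells (adjusted p = 0.0472).

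The 2 CD8 calls of Atf3 were near the threshold and were kept in 4 and 3 of the 16 fits that left out 1 array. Those fits left out one of the CD4 WT or CD8 KO arrays at 18 h, except that the KO call was lost without the second CD8 KO array. In the others the Atf3 difference lay between 1.22 and 1.69 (adjusted p of 0.0505 to 0.294) in WT and between 1.31 and 1.67 (adjusted p of 0.057 to 0.22) in KO cells. Without the 3 arrays of low RNA quality, 0 of the 9 genes were called in stimulated CD8 KO cells, and the rises were 4.19 for Asns (adjusted p = 0.0997), 1.78 for Trib3 (adjusted p = 0.121), 1.57 for Psat1 (adjusted p = 0.142) and 1.37 for Atf3 (adjusted p = 0.348), from 1 array at each time. Ppp1r15a was read unevenly at 0 h, at 8.79 and 7.62 in CD4 WT and 6.86 and 8.12 in CD8 WT cells. The KO replicates had the same order, at 8.25 and 7.03 in CD4 and 6.95 and 7.90 in CD8 cells. On stimulation Ppp1r15a changed by -1.33 ± 0.48 in CD4 WT cells (limma adjusted p = 0.0581, and 0.0195 with the replicate block). It was called in 5 of 16 fits, at -1.92 without CD4 WT 0 h replicate 2 (adjusted p = 0.0231) and at adjusted p of 0.04 to 0.042 without 1 of the CD4 KO or CD8 WT 0 h arrays.

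**Figure D3:**
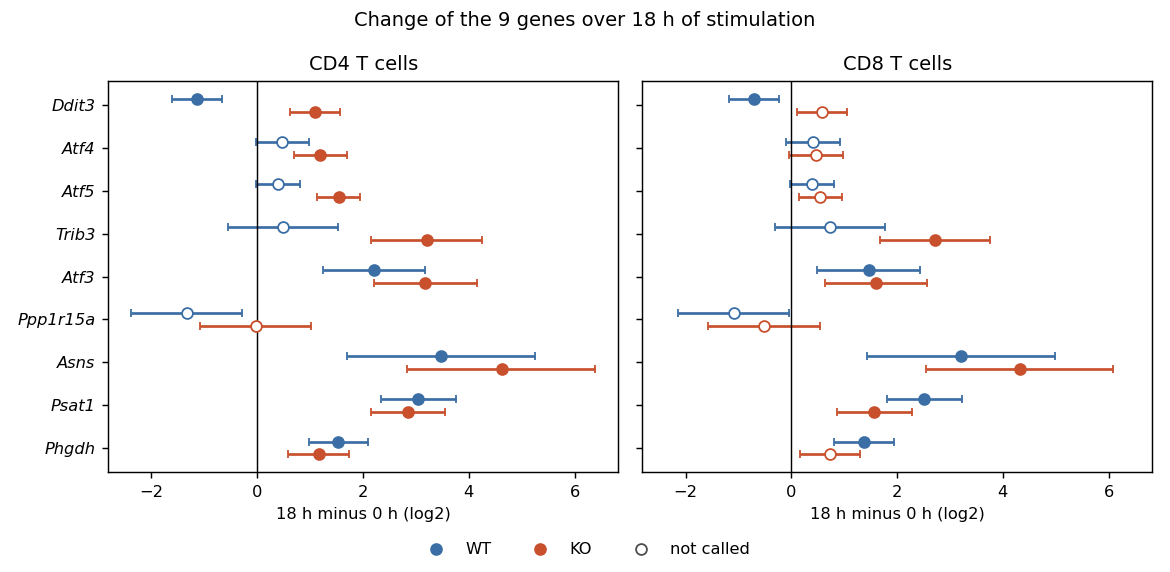
Change of each gene from 0 h to 18 h of stimulation (log2, x axis) in CD4 and CD8 T cells, with WT and KO as separate points. Bars are 95% intervals from limma and open points were not called. Ddit3 lies at -1.13 in CD4 WT and 1.09 in CD4 KO cells, while Asns and Psat1 lie above 0 in all 4 groups.

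The genotype difference of the response was tested directly. In CD4 cells the response of Ddit3 differed between KO and WT by 2.22 ± 0.31 (limma adjusted p = 0.00554, called in 16 of 16 fits without 1 array), the 1 call among the 9 genes, where 1.41% of all genes were called (0.524% higher, 0.888% lower). The median over the 9 genes was 1.14, beside 0.07 over all genes. Trib3 differed by 2.72 ± 0.68 (adjusted p = 0.083) and Atf5 by 1.14 ± 0.27 (adjusted p = 0.0638), and each passed with the replicate block, at adjusted p of 0.0332 and 0.0449, and without either CD8 KO 18 h array, at adjusted p of 0.0196 and 0.0443. The response of Asns differed by 1.15 ± 1.16 and of Psat1 by -0.19 ± 0.46 in CD4 cells, without a call.

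In CD8 cells 0 of the 9 genes were called for the response difference by limma, where 0.266% of all genes were (0.0403% higher, 0.226% lower), with 2 at an unadjusted p under 0.05 (Ddit3 and Trib3) and 0 in limma's test against a fold of 1.5. Ddit3 differed by 1.29 ± 0.31 (adjusted p = 0.147) and Trib3 by 1.98 ± 0.68 (adjusted p = 0.383), or 1.01 and 1.05 without the 3 arrays of low RNA quality. Without CD8 KO 18 h replicate 1 they were 1.60 (adjusted p = 0.019) and 2.78 (adjusted p = 0.0328). The other Trib3 probe set gave 0.39 ± 0.53 for the CD8 and 2.09 ± 0.53 for the CD4 response difference, without a call. The median over the 9 genes was 0.16, beside 0.05 over all genes. The KO effect was also compared between lineages. At 18 h limma called 0 of the 9 genes for the CD8 minus CD4 difference (0.0403% of all genes, 0.0242% higher and 0.0161% lower), with 2 at an unadjusted p under 0.05, Ddit3 at -0.77 ± 0.31 (adjusted p = 0.622) and Atf5 at -0.88 ± 0.27 (adjusted p = 0.464). At 0 h limma called 0 of the 9 genes and 0% of all genes, with 0 of the 9 at an unadjusted p under 0.05. The test against a fold of 1.5 called 0 at each time. The 95% intervals at 18 h, -1.44 to -0.10 for Ddit3 and -1.46 to -0.30 for Atf5, reach from near 0 to larger effects in CD4 cells, so the lineages are not shown to differ and not shown to be alike.

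The order of the 8 groups differed from gene to gene. Ddit3 was highest in CD4 KO 18 h (9.52 ± 0.36, SD, n = 2), followed by CD8 KO 18 h (8.73 ± 0.44), CD4 KO 0 h (8.43 ± 0.07), CD8 KO 0 h (8.15 ± 0.05), CD4 WT 0 h (7.96 ± 0.09), CD8 WT 0 h (7.51 ± 0.05), CD4 WT 18 h (6.83 ± 0.21) and CD8 WT 18 h (6.81 ± 0.16). All KO groups lay above all WT groups. Neighbours in the order overlapped only between CD8 KO 18 h and CD4 KO 0 h and between the 2 WT 18 h groups. Trib3 was at 8.15 ± 0.18 in CD4 KO 18 h and 7.20 ± 1.13 in CD8 KO 18 h, each apart from the next group, and the other 6 groups lay between 4.48 and 5.37. Atf5 was at 7.36 ± 0.30 in CD4 KO 18 h and 6.26 ± 0.17 in CD8 KO 18 h, and the other 6 groups lay between 5.22 and 5.84. Psat1 was instead highest in CD4 WT 18 h (10.39 ± 0.72) and CD8 WT 18 h (9.99 ± 0.69), whose ranges overlapped, then in CD4 KO 18 h (9.68 ± 0.23) and CD8 KO 18 h (8.64 ± 0.02). Phgdh had the same 4 groups on top, from 11.16 ± 0.37 in CD8 WT 18 h to 10.61 ± 0.11 in CD4 KO 18 h, each overlapping the next. Asns had the order of Trib3 in its top 4 groups, 8.16 ± 0.23 in CD4 KO 18 h, 7.96 ± 0.80 in CD8 KO 18 h, 7.20 ± 1.64 in CD4 WT 18 h and 6.53 ± 1.93 in CD8 WT 18 h, and neighbours among these 4 overlapped. Atf3 and Atf4 were also highest in CD4 KO 18 h, at 6.98 and 11.74, and Ppp1r15a was highest in CD4 WT 0 h (8.21) and lowest in CD8 WT 18 h (6.40).

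The genes whose 8 group means ran most like those of 3 regulators were listed, each profile centred on its own mean. For Ddit3, whose means spread with a root mean square of 0.87 (log2), the nearest were Ramp3, Sft2d1 and Dnajc12, at root mean square differences of 0.39, 0.43 and 0.44 over 8 groups. For Trib3 (spread 1.24) they were Slc7a3, a cationic amino acid transporter, the cytokine gene Csf2 and Tnfsf4 (OX40 ligand), at 0.30, 0.35 and 0.36. For Atf5 (spread 0.62) they were Penk, Zfp330 and Glce, at 0.14, 0.15 and 0.17. These distances are descriptions over group means of the same arrays. Penk, Csf2 and Slc7a3 read low, for example 3.12, 3.09 and 3.81 in CD8 WT cells at 0 h, below the array medians of 5.24 to 5.43. Such readings are not shown to be above background.

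The 2 stimulated WT replicates of each lineage lay far apart for Asns and, less so, for several other genes of the 9. In CD4 WT cells at 18 h all 9 genes were higher on replicate 1 than on replicate 2, where 48.3% of all genes were. The gaps of replicate 2 to replicate 1 were -2.31 for Asns, -1.87 for Atf3, -1.40 for Trib3 and -1.02 for Psat1, and 0.0726%, 0.129%, 0.387% and 1% of all genes had a gap at least as large in either direction. In CD8 WT cells at 18 h, 7 of the 9 genes were higher on replicate 2, where 53.5% of all genes were, with gaps of 2.72 for Asns, 0.98 for Psat1 and 0.70 for Trib3, and 0.0161%, 1.93% and 4.96% of all genes had a gap at least as large. Phgdh had gaps of -0.31 and 0.52 in CD4 and CD8 cells, with 31.6% and 10.7% of all genes at least as far apart. For Ddit3 the gaps were -0.30 and -0.22 in CD4 and CD8 cells, and 33% and 42.9% of all genes had one at least as large. The activation markers summed to 13.24 and 13.07 on CD4 WT 18 h replicates 1 and 2 and to 12.13 and 12.64 on the CD8 WT replicates. The naive markers summed to 10.94 and 11.32 and to 12.53 and 11.53 on the same arrays. Replicates 1 and 2 also differed in other lists. On the CD4 WT arrays the CD8 lineage markers were at 8.18 and 6.55, memory and effector markers at 9.63 and 8.42 and NK cell markers at 7.47 and 6.55. On the CD8 WT arrays the same lists were at 12.57 and 12.23, 11.99 and 11.92, and 11.06 and 10.37. In both lineages these 3 lists were higher on replicate 1. Asns was higher on replicate 1 in CD4 and on replicate 2 in CD8 cells, and 4 further lists had that order. On the CD4 WT arrays B cell markers were at 10.71 and 10.52, myeloid at 8.97 and 8.72, regulatory T cell at 11.31 and 11.26 and erythroid and platelet at 6.81 and 6.6. On the CD8 WT arrays these lists were at 10.44 and 10.79, 8.74 and 9.0, 10.37 and 10.75, and 6.5 and 6.61. Across all genes, the gaps of replicate 2 to replicate 1 correlated at -0.337 between the CD4 WT and CD8 WT groups at 18 h. The part of these lists in the gaps was not tested.

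The wider pathway was counted on 7 lists of genes, with the count at an unadjusted p under 0.05 given where limma called none. Over all genes at 18 h, 2.72% were called higher and 4.14% lower in CD4 KO cells, and 1.59% and 1.16% in CD8 KO cells. The all-gene medians were 0.02 and 0.07. At 0 h the shares were 0.533% and 0.742% in CD4 and 1.13% and 0.500% in CD8 cells. For the response difference they were 0.524% and 0.888% in CD4 and 0.0403% and 0.226% in CD8 cells. Among 10 measured enzymes of serine, glycine, proline and one-carbon metabolism, limma called 1 higher and 1 lower in CD4 KO cells at 18 h and 0 in CD8 cells (2 higher and 4 lower unadjusted, 1 and 1 with the block). Without the 3 arrays of low RNA quality the lower counts were 2 in CD4 (with Shmt1, -1.03) and 1 in CD8 cells (Mthfd1, -1.01), and with the block 2 in CD4 cells (with Shmt1). Cth, which makes cysteine from cystathionine, was higher by 3.05 ± 0.68 in CD4 (adjusted p = 0.0163) and differed by 2.46 ± 0.68 in CD8 cells (adjusted p = 0.0784). Mthfd1, a folate enzyme of the cytosol, was lower by -0.86 ± 0.19 in CD4 cells (adjusted p = 0.0161) and differed by -0.75 ± 0.19 in CD8 cells (adjusted p = 0.06). Gpt2, a mitochondrial alanine transaminase, differed by 1.51 ± 0.72 and 1.68 ± 0.72 without a call. On stimulation 8 and 6 of the 10 rose in CD4 and CD8 WT cells (12.2% and 8.21% of all genes) and 7 and 5 in CD4 and CD8 KO cells (11.1% and 3.67% of all genes, and 0 of the 10 in CD8 KO without the 3 arrays of low RNA quality). At 0 h limma called 0 of them in each lineage, also unadjusted and with the block. The list's median at 18 h was 0.00 in CD4 and -0.26 in CD8 cells.

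Of 11 measured amino acid transporters, 2 were called higher in CD4 KO cells at 18 h and 0 in CD8 cells (5 unadjusted, 1 with the block). These were Slc7a3 at 2.75 ± 0.61 (limma adjusted p = 0.0162), which differed by 2.32 ± 0.61 in CD8 cells (adjusted p = 0.0664), and Slc3a2, the heavy chain of CD98, at 0.97 ± 0.19 (adjusted p = 0.0086), which differed by 0.57 ± 0.19 in CD8 cells. Slc7a3 read low in WT cells at 18 h, with means of 4.91 (CD4) and 4.85 (CD8), below the array medians of 5.24 to 5.43. Slc1a4, a neutral amino acid transporter, differed by 1.27 ± 0.48 and 1.18 ± 0.48 without a call. The medians of the list were 0.23 and 0.27. Of 21 measured further effectors of Atf4 and Ddit3, 2 were called higher in each lineage at 18 h and 0 lower, also unadjusted and with the block (3 higher). Without the 3 arrays of low RNA quality the CD8 count was 1, since Sesn2 was lost. Trib2, a relative of Trib3, was higher in CD4 (0.94 ± 0.24, adjusted p = 0.0312) and CD8 cells (1.45 ± 0.24, adjusted p = 0.00767), and its response differed in CD8 cells by 2.26 ± 0.34 (adjusted p = 0.0267, called in 10 of 16 fits). This response call was lost without the 3 arrays of low RNA quality (2.34). Atg12, of autophagosome formation, was called in CD4 (0.83 ± 0.19, called in 12 of 16 fits) and Sesn2, a stress-induced brake on mTORC1, in CD8 cells (0.59 ± 0.13, called in 9 of 16), and Chac1, a classical Atf4 target, differed by 1.17 ± 0.56 and 1.02 ± 0.56 without a call. The list's medians were 0.39 and 0.31.

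Of 19 measured cytosolic tRNA synthetases and their tRNA exporter, 0 were called higher in KO cells at 18 h (1 and 0 unadjusted, 0 with the block), and 1 was called lower in CD4 and 2 in CD8 cells, with medians of 0.02 and -0.14. Over all genes 2.72% and 1.59% were called higher and 4.14% and 1.16% lower, with medians of 0.02 and 0.07. Kars, the lysyl-tRNA synthetase, was lower by -1.74 ± 0.20 (limma adjusted p = 0.000204) in CD4 and -1.54 ± 0.20 (adjusted p = 0.00157) in CD8 cells, both called in 16 of 16 fits without 1 array. Its response also differed, by -1.57 ± 0.28 in CD4 (adjusted p = 0.0178) and -1.53 ± 0.28 in CD8 cells (adjusted p = 0.0465), called in 9 and 2 of 16 fits. Rars was called lower in CD8 cells (-0.71 ± 0.17, adjusted p = 0.0428), in 2 of 16 fits without 1 array and not without the 3 arrays of low RNA quality (-0.56). The response calls of the list in CD8 cells, Kars and Rars (-1.36 ± 0.24), were lost there too (-1.15 and -1.07). Sars differed by 0.59 ± 0.18 and 0.37 ± 0.18 without a call. On stimulation 16 and 10 of the 19 rose in CD4 and CD8 WT cells, where 12.2% and 8.21% of all genes were called higher, and 10 and 2 in CD4 and CD8 KO cells, where 11.1% and 3.67% were. The differences in these counts were not tested, and in CD8 KO cells the count was 4 with the block and 1 without the 3 arrays of low RNA quality.

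**Figure D4:**
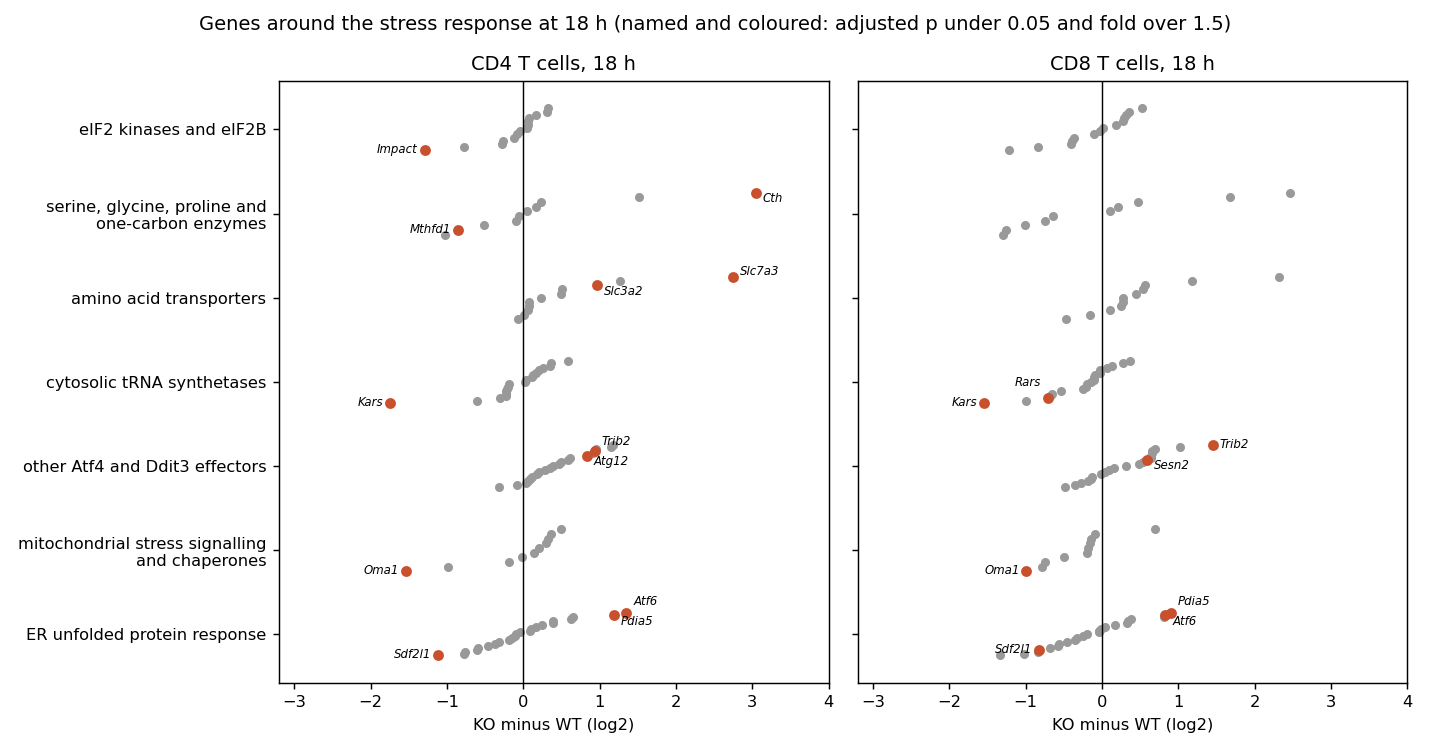
KO minus WT difference at 18 h (log2, x axis) of the measured genes of 7 lists around the stress response (rows) in CD4 (left) and CD8 T cells (right). Each dot is 1 gene, and the coloured and named ones were called. Cth and Slc7a3 lie highest in CD4 cells at 3.05 and 2.75, Kars lowest at -1.74, and most members of every list are grey.

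Upstream of Atf4, 0 of 14 measured eIF2 kinases, eIF2 and eIF2B subunits and their regulators were called higher at 18 h (1 in CD4 and 2 in CD8 cells unadjusted, 0 with the block). Of all genes 2.72% (CD4) and 1.59% (CD8) were. In CD4 cells 1 of the 14 was called lower, where 4.14% of all genes were. That gene, Impact, an inhibitor of the kinase Gcn2, was lower by -1.29 ± 0.22 in CD4 cells (limma adjusted p = 0.00354) and differed by -0.03 ± 0.22 in CD8 cells, and its CD4 response differed by -1.54 ± 0.31 (adjusted p = 0.0324, called in 7 of 16 fits). At 0 h Eif2b2, a subunit of the eIF2B exchange factor, was higher in KO CD4 (0.88 ± 0.14, adjusted p = 0.00909) and CD8 cells (1.02 ± 0.14, adjusted p = 0.00309). Eif2ak2 (PKR) differed by -0.77 ± 0.84 and -1.22 ± 0.84 at 18 h without a call. Oma1, the mitochondrial protease that cleaves Dele1 to pass mitochondrial stress to the eIF2 kinase Hri, was lower in all 4 comparisons, by -0.73 ± 0.14 (CD4) and -0.80 ± 0.14 (CD8) at 0 h and by -1.54 ± 0.14 (CD4) and -0.99 ± 0.14 (CD8) at 18 h. Its 18 h calls held in 16 of 16 fits and its 0 h calls in 12, and the 0 h calls were lost without the 3 arrays of low RNA quality. The study's text places Oma1 among its putative direct targets of GABPα, from these arrays and its ChIP-seq. Dele1 differed by -0.99 ± 0.28 in CD4 (adjusted p = 0.0509, and called with the block) and -0.50 ± 0.28 in CD8 cells at 18 h, and no other of the 10 mitochondrial genes was called between the genotypes at 0 h or 18 h.

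The ER unfolded protein response list, with 23 measured genes, gave 2 called higher at 0 h in each lineage and 2 higher and 1 lower at 18 h in each lineage, with medians of -0.10 and -0.19 at 18 h. Over all genes, 0.533% (CD4) and 1.13% (CD8) were called higher at 0 h. At 18 h 2.72% and 1.59% were higher and 4.14% and 1.16% lower, with medians of 0.02 and 0.07. With the block, 3 were called higher and 3 lower in CD4 cells at 18 h, and without the 3 arrays of low RNA quality 0 were called in CD8 cells at 18 h and 0 in CD4 cells at 0 h. Atf6, a sensor of the ER, was higher in KO at 0 h (1.03 ± 0.19 in CD4 and 1.5 ± 0.19 in CD8 cells) and 18 h (1.35 ± 0.19 and 0.83 ± 0.19, the last called in 1 of 16 fits), and Pdia5, a protein disulfide isomerase, at 18 h (1.19 ± 0.18 and 0.90 ± 0.18). Sdf2l1, a cofactor of ER chaperones, was higher in KO at 0 h by 0.72 ± 0.16 (called in 2 of 16 fits) in CD4 and 1.08 ± 0.16 in CD8 cells and lower at 18 h by -1.12 ± 0.16 and -0.82 ± 0.16. Its response differed between the genotypes by -1.85 ± 0.22 (limma adjusted p = 0.00307) in CD4 and -1.89 ± 0.22 (adjusted p = 0.0068) in CD8 cells. The CD8 response call was lost without the 3 arrays of low RNA quality (-1.76).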

How the data were processed

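Total RNA of naive and stimulated T cells was amplified, labelled with biotin and hybridized to Affymetrix mouse arrays. The deposited values were log2 probe-set signals that the authors had made with the R package affy (version and summary method not given in the sources used here), 22690 probe sets with 64 controls, on a scale from 1.62 to 14.45 with array medians of 5.24 to 5.43. The arrays share a common level, which hides a change in RNA content of whole cells, and their number limits the precision. No column was left unmapped to a sample.

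Of the probe sets, 20393 named 1 gene, 691 several and 1606 none, and 20364 of the first matched the RefSeq table of GRCm38.p6. Each of 12394 genes was its probe set with the highest mean over all arrays. Asns, Atf4, Phgdh, Psat1 and Trib3 had several probe sets, and 2 further ones that name Phgdh together with another gene were left out. limma 3.58.1 (R 4.3.3) fitted 8 group means to all 16 arrays (8 residual and 4.32 prior degrees of freedom) for 12 contrasts, two-sided, with Benjamini-Hochberg adjustment over all genes. The steps were tested on simulated data. The labels do not say which samples share mice. Replicate deviations (replicate 2 minus 1) correlated across genes at 0.264 to 0.451 for 6 pairs of CD4 groups and 0.182 to 0.559 for 6 pairs of CD8 groups. For 16 pairs between lineages they correlated at -0.602 to -0.122, so the deviations tended to run in opposite order in CD4 and CD8 cells. The block therefore used the number within each lineage. This choice rests on the same arrays that the block was fitted to.

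The 9 genes, the lists and the tests were chosen with earlier results of these data known. Named from the lists, for each time, were up to 3 genes called in a lineage and the 1 uncalled gene with the largest mean difference, plus the gene with the largest called response difference, and the 3 genes nearest in profile to Ddit3, Trib3 and Atf5. Of the uncalled genes so chosen, Eif2ak2, Gpt2, Slc7a3, Wars, Eif4ebp1, Dele1 and Syvn1 at 0 h and Sars and Pdia4 at 18 h also had no call. Alternatives were other probe-set rules, normalizations, thresholds, a filter on dim genes, fewer arrays, array weights and the replicate block. Promoters were searched with Python 3.11.15. No protein sequence was used here.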

Additional observations from a re-analysis of the deposited data

Results flagged for a closer look

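The stimulation response of Ddit3 in CD4 cells differed between KO and WT by 2.22 ± 0.31 (log2, SE, limma adjusted p = 0.00554), since it fell by 1.13 in WT and rose by 1.09 in KO cells. It was singled out because the difference itself passed the test. The 2 WT arrays at 18 h (6.98 and 6.67) lay below the WT arrays at 0 h (8.02 and 7.89). The KO arrays at 18 h (9.78 and 9.27) lay above those at 0 h (8.38 and 8.49).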

How the results depend on the processing

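Of 108 differences (9 genes in 12 comparisons), none changed direction after a call, and all 108 kept their side of the threshold after median centring and after quantile normalization. The counts of genes called changed more. Between KO and WT CD8 cells at 18 h (2 genes) the count was 1 with the mean of all probe sets, all probe sets kept apart, limma's test against a fold of 1.5, only the CD8 arrays, array weights or without the 3 arrays of low RNA quality, and 4 with the replicate block. On stimulation, the test against a fold of 1.5 gave 5 in place of 8 in CD4 KO, 1 in place of 5 in CD8 WT and 2 in place of 4 in CD8 KO cells, probe sets kept apart gave 3 in CD8 WT, and in CD8 KO array weights gave 1 and the arrays of higher RNA quality 0. For the CD4 response difference (1 gene), leaving out dim genes or using only the CD4 arrays gave 2, and array weights or the block 3. Leaving out 1 array at a time gave counts of 3 to 5 (CD4) and 1 to 3 (CD8) between the genotypes at 18 h, of 4 to 6 (CD4 WT), 8 to 8 (CD4 KO), 1 to 5 (CD8 WT) and 1 to 6 (CD8 KO) on stimulation, of 1 to 3 (CD4) and 0 to 2 (CD8) for the response difference, and 0 elsewhere. Among the 108 differences the replicate block changed 5 calls, all given with the results, and no other. The lineage comparisons could not be run on the arrays of 1 lineage. The cause of these changes was not tested. With 2 arrays per group, SE ran from 0.19 to 0.82 for the 9 genes in the genotype and stimulation comparisons.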
